A study of Mus musculus with 22 samples.

Results

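Iron and heme handling was followed through 9 genes in ischemic mouse muscles, 11 with miR-210 blocked and 11 controls. The genes were Flvcr1, Hmox1, Blvrb, Fth1, Ftl1, Tfrc, Slc40a1, Cp and Hamp2. Every array probe annotated with one of these symbols was taken, which gave 17 probes of 38563 and 9 genes of 18524. All 9 genes were measured, and 12 of the 17 probes had a mean at or above 6 on the log2 scale, the level under which a probe was regarded as dim. The other 5 were dim, among them the only probe of Hamp2.

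The arrays held RNA from the gastrocnemius muscle of 22 non-diabetic male C57BL/6N mice, 8 to 12 weeks old, 1 mouse per array. All had undergone femoral artery dissection and hindlimb ischemia. On day 5 of ischemia 11 mice received an LNA oligonucleotide complementary to miR-210 (ANTI-210) at 12 mg/kg, and 11 control mice received a scrambled LNA oligonucleotide (SCR). Muscles were collected on day 7. The oligonucleotides were given intraperitoneally, so they were not restricted to one muscle or cell type, and no transgene or gene deletion was involved. Each muscle is a mixture of fibres, vessels and infiltrating cells, and mature miR-210 was not among the transcripts read by the probes used here.

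Heme carries iron in hemoglobin, in myoglobin and in the cytochromes of mitochondria. Cells that clear dead fibres and extravasated red cells take up heme, open its ring with heme oxygenase, store the freed iron in ferritin and release it through ferroportin, the channel that hepcidin removes from the cell surface. Muscle fibres and dividing cells take iron up from transferrin through the transferrin receptor. MiR-210 is induced by hypoxia and is known for restraining iron-sulfur cluster assembly and mitochondrial respiration.

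The microRNA that was blocked is printed because its seed, in capitals (bases 2 to 8), is the part that pairs with target transcripts. The mature sequence is from RefSeq, build GRCm38.p6, at chr7:141221407-141221428 on the minus strand.
mmu-miR-210-3p: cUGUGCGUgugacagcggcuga

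Of the 9 genes, 1 was lower with ANTI-210 (Flvcr1), 1 was higher (Hamp2) and 7 did not pass the unadjusted threshold (limma, p under 0.05). Among all 18524 genes, 3.47% passed, 1.45% higher and 2.01% lower, and among all 38563 probes 3.41% passed. These genes were chosen with their earlier results known, so their count is not read against those shares. No member probe passed after Benjamini-Hochberg adjustment over all probes, where 2 probes (0.00519%) did, and the adjusted p was 1.0 for every member probe. The median difference, ANTI-210 minus SCR, was 0.088 over the 9 genes, each read by its brightest probe, and -0.0036 over all genes. The standard error was 0.067 for the median probe of the array, where 62.6% of all probes were dim. It was larger for most of the brighter members, which varied widely between mice of the same group. They were not compared with bright probes alone.

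**Figure D1:**
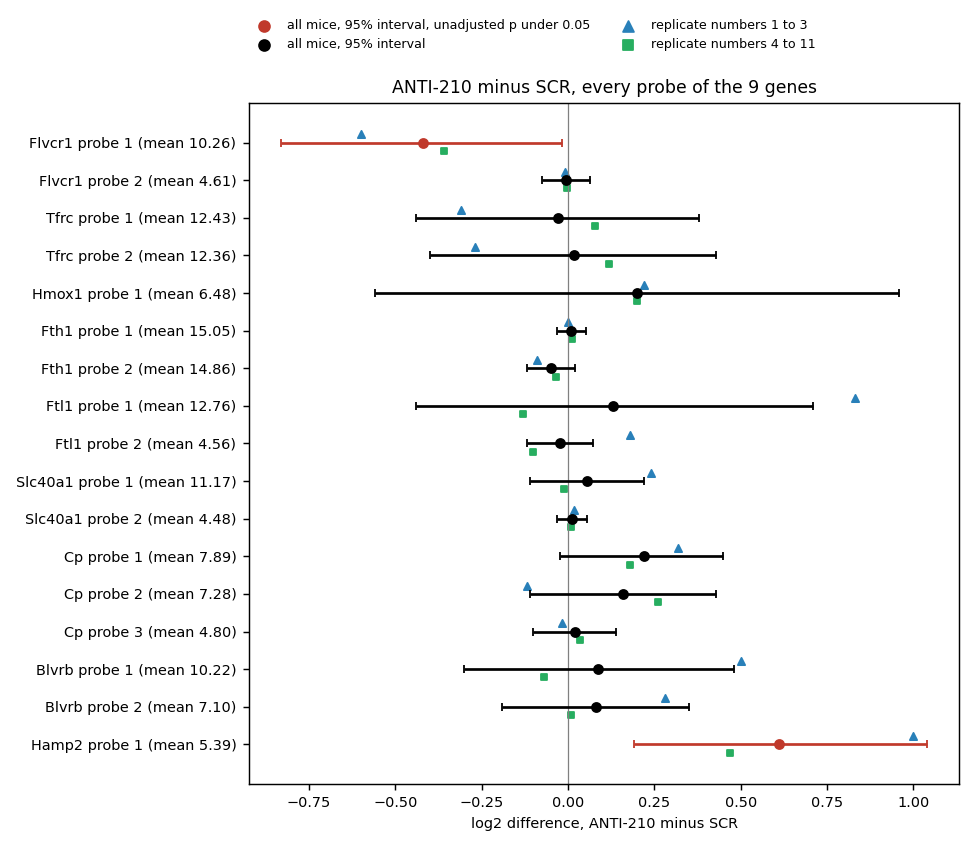
Difference in log2 intensity, ANTI-210 minus SCR (horizontal axis), for each of the 17 probes, with bars for the 95% interval from limma over 11 mice per group, red where the unadjusted p is under 0.05, and with the difference within replicate numbers 1 to 3 (triangles) and 4 to 11 (squares). The intervals of Flvcr1 probe 1 (-0.42) and of Hamp2 (0.61) lie to one side of 0, and the other 15 include 0.

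The genes ranged to different extents between mice, as read at different heights of the array scale. Fth1, the ferritin heavy chain, sat near the top of that scale and ranged over 0.17 on the log2 scale. Hmox1 ranged over 3.08, with its lowest mice at a dim level. Ftl1, the ferritin light chain, ranged over 2.44 and Flvcr1 over 2.33. Hamp2 ranged over 2.08, Tfrc over 1.6 and Blvrb over 1.46. Cp ranged over 1.12 and Slc40a1 over 0.67.

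**Figure D2:**
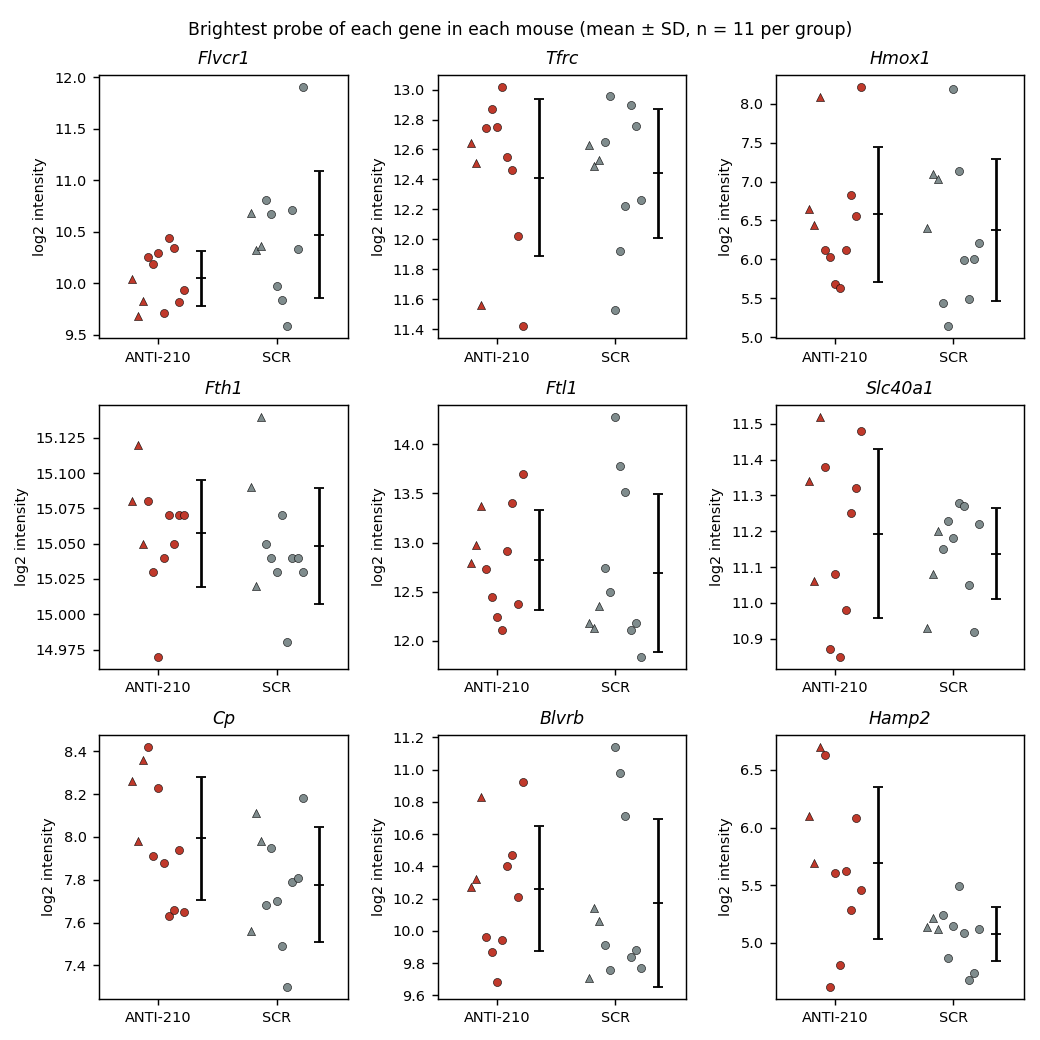
Log2 intensity of the brightest probe of each gene, 1 point per mouse, ANTI-210 left of SCR, with the mean and SD of 11 mice and triangles for replicate numbers 1 to 3. The groups overlap for all 9 genes, and 1 SCR mouse has the highest Flvcr1 value (11.91).

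Flvcr1 takes its name from a receptor for feline leukemia virus and encodes a membrane protein described as an exporter of heme, which protects erythroid precursors from free heme, and also as a choline transporter. Its bright probe ran from 9.68 through a median of 10.04 to 10.44 in ANTI-210 mice, against 9.58, 10.36 and 11.91 in SCR controls. Of the SCR controls, 5 lay above the highest ANTI-210 mouse and 1 lay below the lowest, and 10 of 11 ANTI-210 mice lay below the SCR median. The means were 10.05 ± 0.27 in ANTI-210 mice and 10.47 ± 0.62 in SCR controls (SD, n = 11 each). The difference was -0.42 (SE 0.2, 95% interval -0.83 to -0.016), a level 0.746 times that of the controls (limma, p = 0.0425, adjusted p = 1.0). Its second probe was dim, with 4.6 ± 0.065 in ANTI-210 mice and 4.61 ± 0.084 in SCR controls, and differed by -0.0055 (p = 0.871).

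The call for Flvcr1 rested in part on single mice. Without the SCR control of the highest value, replicate 11, the difference was -0.28 (limma, p = 0.0692), and the threshold was missed in 11 of the 22 fits that each left out 1 mouse, with differences between -0.51 and -0.28. These were the fits without ANTI-210 replicate 1, 2, 3, 7, 10 or 11 or without SCR replicate 1, 4, 5, 9 or 11. The sign did not change in any of them. The mice also fall in 2 sets of replicate numbers, 1 to 3 and 4 to 11, which stood apart along the second principal component of the arrays, and the labels give no batch for them. Flvcr1 was 9.85 in ANTI-210 mice and 10.45 in SCR controls in numbers 1 to 3, a difference of -0.6 (exact permutation p = 0.1, the smallest that 3 against 3 allows). In numbers 4 to 11 it was 10.12 in ANTI-210 mice and 10.48 in SCR controls, a difference of -0.36 (exact permutation p = 0.226).

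Flvcr1 was lower where macrophage markers were higher. Over 22 mice the correlation of Flvcr1 with the mean of 11 macrophage markers was r = -0.66 (Spearman rho -0.59, permutation adjusted p = 0.0017 for r and 0.0177 for rho), and r was -0.66 again without the 2 mice farthest from the median marker level. Within groups r was -0.21 in ANTI-210 mice (permutation p = 0.522) and -0.85 in SCR controls (permutation p = 0.00046); the difference between these correlations was not tested. None of the 11 macrophage markers passed the threshold between treatments in the fit of all mice. Their mean was expressed relative to the mean of each gene over all mice. It ran from -0.83 to 1.24 in ANTI-210 mice and from -1.43 to 1.32 in SCR controls. The lowest value belonged to the same SCR replicate 11. In replicate numbers 1 to 3 this mean was 0.41, 0.51 and 1.24 in ANTI-210 mice and -0.44, -0.23 and -0.24 in SCR controls. Marker differences, ANTI-210 minus SCR, ran from 0.2 (Itgam) to 1.5 (Lyz2) there. In numbers 4 to 11 they ran from -0.086 (Itgam) to 0.15 (Lyz2). Their part in the member differences of numbers 1 to 3 was not tested. With the macrophage mean as a covariate the Flvcr1 difference was -0.31 (limma, p = 0.0596), while 5.46% of all probes passed. In bulk muscle, fewer cells of a type and less RNA per cell cannot be told apart.

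The 250 bases upstream of the Flvcr1 start site are printed because the gene is one of the members that differed. They come from RefSeq (GRCm38.p6, chr1:191026191-191026440, minus strand), and capitals mark the 1 match to TGACNNNGC, the core bound by the stress-response factor NFE2L2, at -151 to -143.
Flvcr1 upstream: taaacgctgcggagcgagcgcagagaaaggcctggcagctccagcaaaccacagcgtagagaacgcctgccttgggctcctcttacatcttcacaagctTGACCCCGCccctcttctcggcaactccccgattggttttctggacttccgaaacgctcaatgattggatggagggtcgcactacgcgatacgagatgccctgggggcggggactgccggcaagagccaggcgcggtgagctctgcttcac
The motif was searched on both strands and occurred in 10.2% of 32851 such windows of the genome, and a match of letters does not show binding. Other cores searched were ACGTG and GCGTG (HIF), GGCGCC (BMP) and TTCNNNGAA (STAT), and none had a match in this window.

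The genes whose level followed that of Flvcr1 most closely, with group means removed, over 22 mice and 8828 genes bright enough to be compared, were Ddx20 (r = 0.83), Chac1 (0.81), Hsd11b1 (0.77), Prodh (0.77) and Aifm2 (0.76). Chac1, a glutathione-degrading enzyme induced by the integrated stress response, had r = 0.83 without the 2 mice whose Flvcr1 lay farthest from its group mean. For the other 4 genes r without those mice lay between 0.53 and 0.64. None of the 5 passed the threshold between treatments, Chac1 differing by -0.55 (p = 0.314).

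Neither gene of heme breakdown passed the threshold between treatments. Hmox1, the inducible heme oxygenase that turns heme into biliverdin, iron and carbon monoxide, ran from 5.63 through 6.44 to 8.22 in ANTI-210 mice and from 5.14 through 6.21 to 8.19 in SCR controls. The highest mice of both groups thus had nearly the same level, and the groups overlapped almost fully. The means were 6.58 ± 0.86 in ANTI-210 mice and 6.38 ± 0.91 in SCR controls, a difference of 0.2 (SE 0.37, 95% interval -0.56 to 0.96, p = 0.582). The difference was 0.22 in replicate numbers 1 to 3 and 0.2 in numbers 4 to 11, and it ran from 0.041 without ANTI-210 replicate 11 to 0.39 without SCR replicate 6.

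Blvrb, biliverdin reductase B, which also acts as a flavin reductase, ran from 9.68 through 10.27 to 10.92 in ANTI-210 mice and from 9.71 through 9.91 to 11.14 in SCR controls. Its means were 10.26 ± 0.39 in ANTI-210 mice and 10.17 ± 0.52 in SCR controls, a difference of 0.088 (SE 0.19, 95% interval -0.3 to 0.48, p = 0.646). The sign turned between the sets of replicate numbers, with 0.5 in numbers 1 to 3 (exact permutation p = 0.1) and -0.068 in numbers 4 to 11 (exact permutation p = 0.79). A second Blvrb probe averaged 7.14 ± 0.31 in ANTI-210 mice and 7.06 ± 0.33 in SCR controls and followed the first over the mice (r = 0.86, rho 0.78).

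Hmox1 was closest, with group means removed, to Pprc1, Xpot, Cndp2 and Trappc3 (r = 0.89 each) and to Tbc1d10a (r = 0.88). Xpot exports transfer RNA from the nucleus, and Pprc1 is a relative of the coactivator PGC-1. Without the 2 mice whose Hmox1 lay farthest from its group mean, r lay between 0.81 and 0.84. The 5 genes differed between treatments by -0.1 to 0.095, and none passed the threshold.

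Ferritin, the shell that stores iron, is built of heavy chains (Fth1), which oxidise iron, and light chains (Ftl1), which help to lay down the mineral core. Fth1 ran from 14.97 through 15.07 to 15.12 in ANTI-210 mice and from 14.98 through 15.04 to 15.14 in SCR controls, close to the highest value of any probe, 15.4. Its difference was 0.0091 (SE 0.02, 95% interval -0.033 to 0.051, p = 0.657). The second probe averaged 14.83 ± 0.089 in ANTI-210 mice and 14.88 ± 0.054 in SCR controls and differed by -0.049 (p = 0.146). Without ANTI-210 replicate 6 that difference was -0.068 (p = 0.0277). The probes did not follow each other over the mice (r = -0.25, rho -0.14).

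Ftl1 ran from 12.11 through 12.79 to 13.7 in ANTI-210 mice and from 11.84 through 12.35 to 14.28 in SCR controls. Both the lowest and the highest mouse were SCR controls, replicates 11 and 6. The means were 12.82 ± 0.51 in ANTI-210 mice and 12.69 ± 0.8 in SCR controls, a difference of 0.13 (SE 0.28, 95% interval -0.44 to 0.71, p = 0.639). In replicate numbers 1 to 3 Ftl1 was 13.05 in ANTI-210 mice and 12.22 in SCR controls, a difference of 0.83 (exact permutation p = 0.1). In numbers 4 to 11 it was 12.74 in ANTI-210 mice and 12.87 in SCR controls, a difference of -0.13 (exact permutation p = 0.735). The change of the difference between the sets, 0.96, did not pass the threshold (limma interaction, p = 0.134). The second Ftl1 probe was dim, with 4.54 ± 0.1 in ANTI-210 mice and 4.57 ± 0.12 in SCR controls.

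Tfrc, the transferrin receptor through which cells take up iron, was bright in every muscle. It ran from 11.42 through 12.55 to 13.02 in ANTI-210 mice and from 11.53 through 12.53 to 12.96 in SCR controls. The ranges of the groups nearly coincided. The difference was -0.028 (SE 0.2, 95% interval -0.44 to 0.38, p = 0.888). A second probe averaged 12.37 ± 0.48 in ANTI-210 mice and 12.35 ± 0.49 in SCR controls (difference 0.016, p = 0.936) and followed the first over the mice (r = 0.98, rho 0.96).

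Iron leaves cells through ferroportin (Slc40a1), and ceruloplasmin (Cp), a copper oxidase, converts the released iron to the form that transferrin binds. Slc40a1 ran from 10.85 through 11.25 to 11.52 in ANTI-210 mice and from 10.92 through 11.18 to 11.28 in SCR controls. The ANTI-210 mice were spread wider, with 5 above the highest and 2 below the lowest SCR control. The means were 11.19 ± 0.24 in ANTI-210 mice and 11.14 ± 0.13 in SCR controls, a difference of 0.056 (SE 0.079, 95% interval -0.11 to 0.22, p = 0.484). Its second probe was dim and differed by 0.012 (p = 0.574).

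Cp ran from 7.63 through 7.94 to 8.42 in ANTI-210 mice and from 7.3 through 7.79 to 8.18 in SCR controls. Of the ANTI-210 mice 4 lay above the highest SCR control, and of the SCR controls 3 lay below the lowest ANTI-210 mouse. The means were 7.99 ± 0.29 in ANTI-210 mice and 7.78 ± 0.27 in SCR controls, a difference of 0.22 (SE 0.11, 95% interval -0.023 to 0.45), which missed the threshold (limma, p = 0.0746). A second probe averaged 7.36 ± 0.22 in ANTI-210 mice and 7.2 ± 0.39 in SCR controls, a difference of 0.16 (SE 0.13, p = 0.237), and followed the first over the mice (r = 0.71, rho 0.74). The remaining probe was dim and differed by 0.02 (p = 0.731).

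Both brighter Cp probes passed the threshold once the main axis of variation between muscles entered the fit. With the first principal component in the model, the differences were 0.25 (p = 0.0269) and 0.22 (p = 0.00499), while 5.96% of all probes passed. With the macrophage mean they were 0.26 (p = 0.0283) and 0.26 (p = 0.00558). With array weights they shrank to 0.15 (limma, p = 0.199) and 0.047 (limma, p = 0.669), while 10.4% of all genes passed. The second probe differed by -0.12 in replicate numbers 1 to 3 and by 0.26 in numbers 4 to 11 (exact permutation p = 0.148), whereas the first differed by 0.32 and 0.18 in these sets. The first probe also passed in 5 of the 22 fits that each left out 1 mouse. These were the fits without ANTI-210 replicate 8, 9 or 11 or without SCR replicate 2 or 11.

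Hamp2, a hepcidin gene found in the mouse beside Hamp, was the member with the largest difference in either direction. Its probe ran from 4.62 through 5.62 to 6.7 in ANTI-210 mice and from 4.68 through 5.12 to 5.49 in SCR controls. Of the ANTI-210 mice 7 lay above the highest SCR control and 1 below the lowest, and 9 of 11 lay above the SCR median. The means were 5.69 ± 0.66 in ANTI-210 mice and 5.08 ± 0.23 in SCR controls. The difference was 0.61 (SE 0.2, 95% interval 0.19 to 1.04), 1.53-fold (limma, p = 0.00663, adjusted p = 1.0). The threshold was passed whichever of the 22 mice was left out, with differences between 0.51 and 0.72.

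The level behind that difference was low. The Hamp2 probe averaged 5.39 over all mice, under 6, where 62.6% of all probes lay. Hamp, the hepcidin that liver secretes, was at the floor in both groups, with 4.55 ± 0.07 in ANTI-210 mice and 4.54 ± 0.06 in SCR controls (p = 0.631). In replicate numbers 1 to 3 Hamp2 was 6.16 in ANTI-210 mice and 5.16 in SCR controls, a difference of 1.0 (exact permutation p = 0.1). In numbers 4 to 11 it was 5.52 in ANTI-210 mice and 5.05 in SCR controls, a difference of 0.47 (exact permutation p = 0.0786), which alone did not pass. Hepcidin is made by hepatocytes, and all 8 hepatocyte markers were dim, with none past the threshold. Their mean ran from -0.2 to 0.84 in ANTI-210 mice and from -0.21 to 0.33 in SCR controls. Their part in the Hamp2 difference was not tested.

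The upstream windows of Hamp2 and Hamp are printed together because these genes are close copies. Both are from RefSeq, GRCm38.p6, minus strand, Hamp2 at chr7:30924182-30924431 and Hamp at chr7:30944030-30944279. Capitals mark GGCGCC, the core of a BMP-responsive element, and TTCNNNGAA, the core bound by STAT factors.
Hamp2 upstream: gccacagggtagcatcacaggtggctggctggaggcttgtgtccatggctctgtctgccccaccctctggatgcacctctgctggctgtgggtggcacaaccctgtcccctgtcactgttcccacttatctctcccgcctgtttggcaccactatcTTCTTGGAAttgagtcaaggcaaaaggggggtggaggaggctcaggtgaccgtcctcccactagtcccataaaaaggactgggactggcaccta
Hamp upstream: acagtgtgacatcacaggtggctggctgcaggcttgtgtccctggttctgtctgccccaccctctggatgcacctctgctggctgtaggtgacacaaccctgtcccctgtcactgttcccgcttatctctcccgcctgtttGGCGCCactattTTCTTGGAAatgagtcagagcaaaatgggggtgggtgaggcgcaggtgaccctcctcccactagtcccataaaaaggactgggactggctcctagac
The windows were identical at 227 of 253 aligned positions (89.7%). The STAT core lay at -94 to -86 in Hamp2 and at -97 to -89 in Hamp, and it occurred in 7.02% of all windows. GGCGCC lay at -109 to -104 in Hamp, had no match in the Hamp2 window and occurred in 9.59% of all windows. Both motifs were searched on both strands. The NFE2L2 core and the HIF cores were searched as well and had no match in either window. Which of the close copies the Hamp2 probe reads was not tested.

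Of all genes bright enough to be compared, Slc40a1 was the closest to Hamp2 over the mice, with group means removed (r = 0.71). Without the 2 mice whose Hamp2 lay farthest from its group mean, r was 0.56. Slc40a1 was followed by Gtf3c2 (0.65), Etv3 (0.65), Ttc39c (0.64) and Pak2 (0.63). Without those mice r for these genes lay between 0.42 and 0.59, and Etv3 (0.59) lay above Slc40a1. Ferroportin is the protein that hepcidin binds, and whether that bears on the correlation of Hamp2 with Slc40a1 was not tested. With group means left in, Hamp2 and Slc40a1 had r = 0.67 (rho 0.62, permutation adjusted p = 0.0022 for r and 0.00985 for rho). Without the 2 mice farthest from the median of Slc40a1, r was 0.55. Within groups r was 0.76 in ANTI-210 mice (permutation p = 0.00664) and 0.47 in SCR controls (permutation p = 0.141). Within replicate numbers 4 to 11 it was 0.6 and within numbers 1 to 3 it was 0.86.

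Across mice, several members varied together and Tfrc varied against them. In all, 71 relations were computed: 36 between members, 27 between members and 3 marker lists, and 8 between probes of a gene, and adjusted p-values run over all 71. Of the 36 pairs of members, 10 passed for both r and rho, 5 positive and 5 negative. The share of all gene pairs that would pass was not computed, so this count is not read as particular to these genes. The first principal component alone held 63.6% of the variance between arrays. All 10 had the same sign within both groups, and 5 had an unadjusted permutation p under 0.05 in both, 4 in ANTI-210 mice only and 1 (Flvcr1 and Blvrb) in SCR controls only. Whether a correlation differs between groups was not tested. The closest pair was Ftl1 and Blvrb (r = 0.92, rho 0.82), with r = 0.9 in ANTI-210 mice and 0.94 in SCR controls. Without the 2 mice farthest from the median of Ftl1, r was 0.88. Hmox1 and Ftl1 passed for r only (r = 0.64, permutation adjusted p = 0.00527, and rho 0.48, adjusted p = 0.0613). Tfrc ran the other way. Its r was -0.87 with Hmox1 (rho -0.82), -0.84 with Blvrb (rho -0.76), -0.72 with Ftl1 (rho -0.61) and -0.66 with Slc40a1 (rho -0.61). For Tfrc and Slc40a1, r was -0.77 in ANTI-210 mice and -0.46 in SCR controls (permutation p = 0.149). For Tfrc and Hmox1, r was -0.93 in ANTI-210 mice and -0.81 in SCR controls, -0.91 within replicate numbers 4 to 11 and -0.91 within numbers 1 to 3. For r of the Ftl1-Blvrb, Tfrc-Hmox1 and Tfrc-Blvrb pairs the permutation p was 1e-05, the smallest that 100000 resamples can give, and 6.45e-05 after adjustment.

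**Figure D3:**
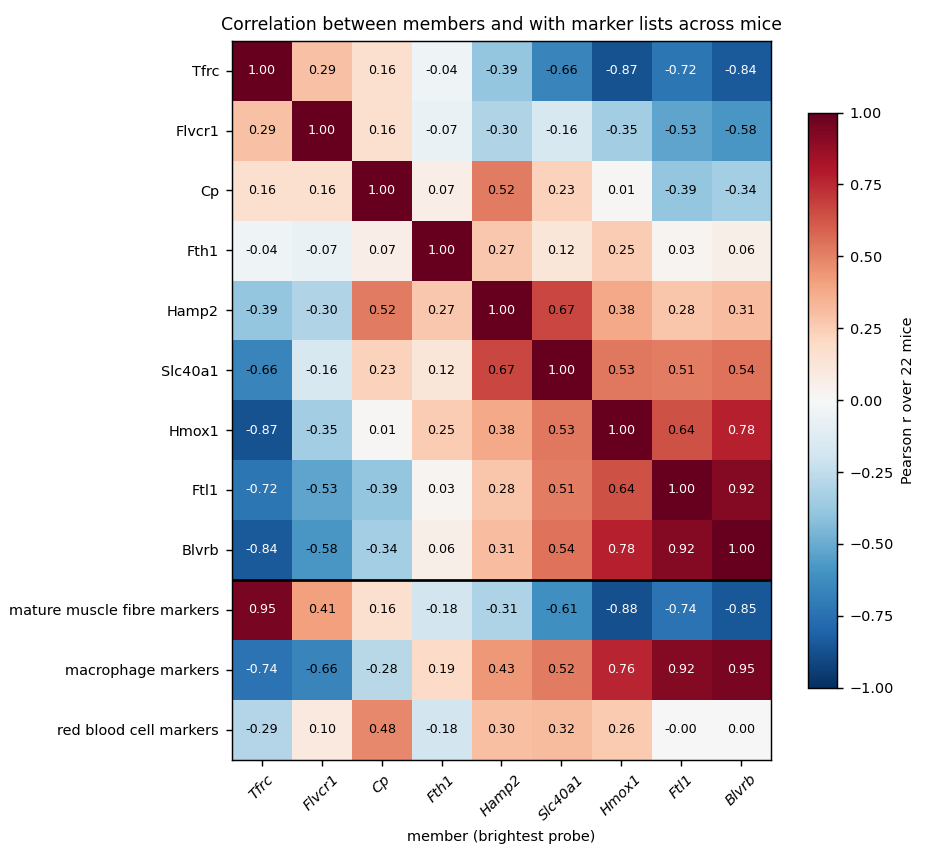
Pearson r between the 9 genes (brightest probe of each) over 22 mice, by colour and number, with the bottom 3 rows giving r with the means of the fibre, macrophage and red blood cell markers. Between Ftl1, Blvrb and Hmox1 r is positive (0.92 for Ftl1 and Blvrb), though Hmox1 and Ftl1 (0.64) passed for r only. Tfrc is negatively related to Ftl1, Blvrb and Hmox1 (-0.87 with Hmox1).

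Ftl1, Blvrb and Hmox1 rose with macrophage markers and fell with muscle fibre markers, and Tfrc rose with fibre markers and fell with macrophage markers. With the macrophage mean, r was 0.95 for Blvrb (rho 0.94), 0.92 for Ftl1 (rho 0.87) and 0.76 for Hmox1 (rho 0.72), and it was 0.93, 0.92 and 0.64 without the 2 farthest mice. In ANTI-210 mice these r were 0.96 for Blvrb, 0.92 for Ftl1 and 0.88 for Hmox1, and in SCR controls 0.95, 0.94 and 0.66. Within replicate numbers 4 to 11 they were 0.96, 0.96 and 0.78, and within numbers 1 to 3 they were 0.95, 0.98 and 0.61, the last with a permutation p of 0.193. Tfrc had r = -0.74 with macrophage markers (rho -0.74) and 0.95 with the mean of 11 mature fibre markers (rho 0.88, r = 0.91 without the 2 farthest mice), among them the fast myosins and creatine kinase. With the fibre markers r was -0.88 for Hmox1 (rho -0.79), -0.85 for Blvrb (rho -0.82) and -0.74 for Ftl1 (rho -0.58). The macrophage mean spanned 2.76 without separate clusters, its widest gap being 0.57 (20.8% of the span). The 11 fibre markers, whose means lay between 14.17 and 15.35, sat close to the highest value of the arrays, 15.4, so a difference between treatments could be missed there, and none passed. The cells that carried these transcripts were not tested.

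**Figure D4:**
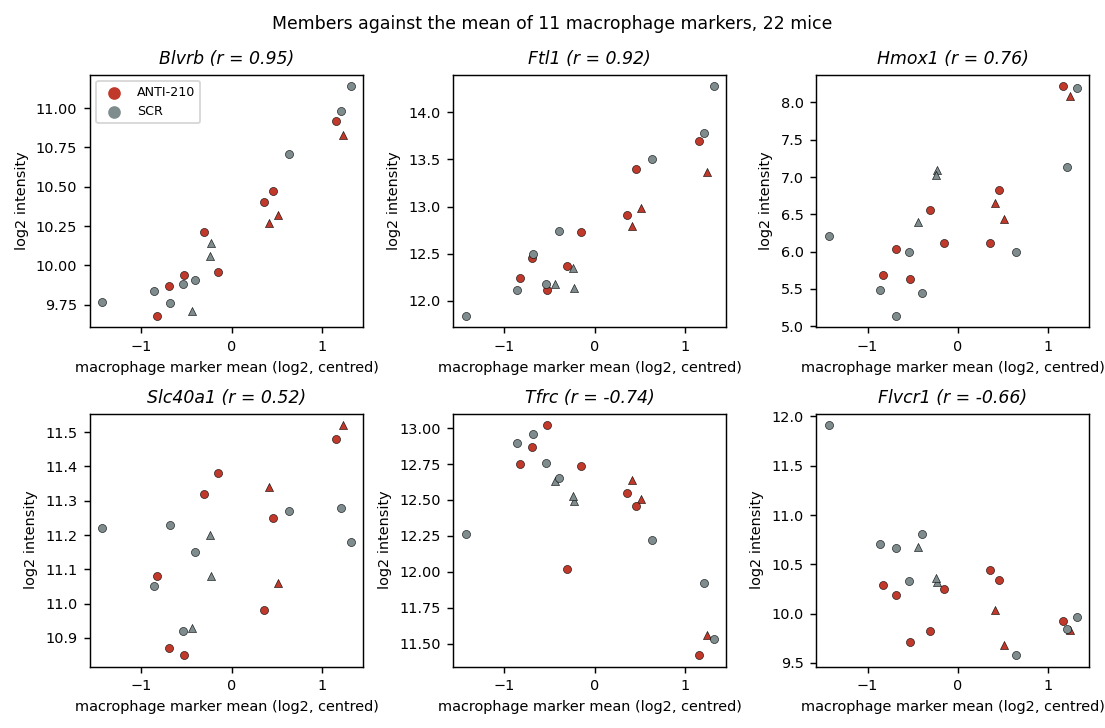
Log2 intensity of 6 member genes (vertical axes) against the mean of 11 macrophage markers relative to their mean over all mice (horizontal axis, log2), 1 point per mouse, red for ANTI-210 and grey for SCR, with triangles for replicate numbers 1 to 3. Blvrb and Ftl1 rise with the marker mean (r = 0.95 and 0.92), and Tfrc falls (r = -0.74).

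Slc40a1 also rose with macrophage markers, less closely (r = 0.52, rho 0.55, permutation adjusted p = 0.0338 for r). Its r with the fibre markers was -0.61 (rho -0.53, permutation adjusted p = 0.0071 for r). For Hamp2 the relation with macrophage markers passed for rho only (r = 0.43, adjusted p = 0.111, and rho 0.55, adjusted p = 0.0264). Fth1 (r = 0.19, adjusted p = 0.512) and Cp (r = -0.28, adjusted p = 0.306) did not pass. For Cp, r was -0.65 within replicate numbers 4 to 11 (permutation p = 0.00635) and 0.75 within numbers 1 to 3 (permutation p = 0.0861). Of the 6 red blood cell markers measured 5 were dim, none passed between treatments, and none of the 9 members had a relation with their mean that passed over all mice. For Cp, r with that mean was 0.48 over all mice, 0.71 within replicate numbers 4 to 11 (permutation p = 0.00264) and 0.39 within numbers 1 to 3. Of 10 endothelial markers 5 passed, each higher after miR-210 blocking, beside 1.45% of all genes. In replicate numbers 4 to 11 none of these 5 passed (exact permutation p from 0.0769 for Tek to 0.795 for Esam). Of 7 neutrophil markers 1 passed, the dim Mmp8, which was lower, beside 2.01% of all genes. Their part in the differences of Flvcr1 and Hamp2 was not tested.

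Around these 9 genes, 6 lists named 58 further genes of iron and heme handling, of which 55 were measured and 38 had a mean at or above 6. None was higher with ANTI-210, 2 were lower and 53 did not pass, which is 3.64% against the 3.47% of all genes. The median difference was -0.0064 over the 55 genes and -0.0036 over all genes. None of the 55 passed after adjustment over all probes.

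**Figure D5:**
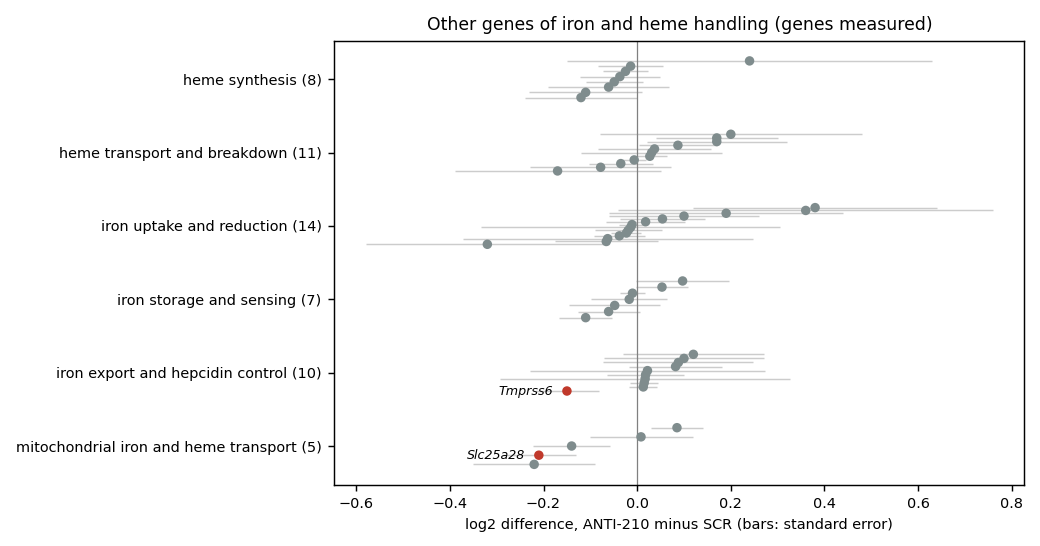
Difference in log2 intensity, ANTI-210 minus SCR (axis in log2 units), for the 55 measured genes of the 6 lists, 1 row of points per list, with bars for the SE and with genes past the unadjusted threshold in red and named. Of the 55 only Slc25a28 (-0.21) and Tmprss6 (-0.15) pass, both lower.

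Slc25a28, mitoferrin-2, which carries iron into mitochondria outside the erythroid lineage, averaged 10.43 ± 0.15 in ANTI-210 mice and 10.64 ± 0.22 in SCR controls, a difference of -0.21 (SE 0.079, p = 0.017). The difference was -0.4 in replicate numbers 1 to 3 and -0.13 in numbers 4 to 11, where it did not pass (exact permutation p = 0.221). Tmprss6, the liver protease that restrains hepcidin, was dim, with 4.9 ± 0.07 in ANTI-210 mice and 5.05 ± 0.22 in SCR controls (difference -0.15, SE 0.069, p = 0.0432), and its other probe differed by -0.01. The erythroid mitoferrin Slc25a37 differed by 0.085 (p = 0.132).

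The other lists held no gene past the threshold. In heme synthesis (8 genes) the smallest p belonged to Alad, the enzyme that makes porphobilinogen (difference -0.12, p = 0.33). In heme transport and breakdown (11 genes) it belonged to the heme-binding protein Pgrmc1 (0.17, p = 0.189). In iron uptake and reduction (14 genes) it belonged to Trf, transferrin itself (0.38, p = 0.154), and in iron storage and sensing (7 genes) to Fbxl5, the iron-sensing ligase subunit that targets iron regulatory protein 2 (-0.11, p = 0.0609). Medians of these lists ran from -0.043 in heme synthesis to 0.031 in heme transport and breakdown.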

How the data were processed

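The authors hybridised 200 ng of biotin-labelled total RNA per mouse to Illumina MouseWG-6 v2 BeadChips, quantile normalised the bead summaries and filtered the probes with beadarray; neither versions nor filter settings are stated in the sources used. The authors deposited log-scale values, read here as log2 because they run from 4.35 to 15.4 on every array, and values of equal rank differed between arrays by at most 0.07. Arrays correlated at 0.947 to 0.997. Detection p-values were not used, so dimness was judged by a mean under 6. Of the 38563 probes, 32093 carry 1 symbol of the platform annotation, 16 several and 6454 none, and 32035 matched the gene table by Entrez ID (0 symbols updated). Sequences are RefSeq's; upstream windows matched 7 of the 9 members. The number of arrays limits the precision.

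Groups and replicate numbers are those of the labels, and the mouse is the replicate. All probes were fitted with limma 3.58.1 (lmFit, eBayes) in R 4.3.3, two-sided, with no covariate, at the methods' unadjusted p under 0.05, and p-values were adjusted by Benjamini-Hochberg over all probes, or all genes, each read by its brightest probe. Relations were tested by permutation (100000 resamples) in Python 3.11.15, and differences within replicate numbers by exact permutation, two-sided. Dim and bright probes were both tested. Scripts were tested on simulated data.

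The members, lists and settings were chosen with earlier results of these data known. Named genes are all members, list genes past the threshold or else the smallest p of each list, and the 5 genes closest to Flvcr1, Hmox1 and Hamp2; Hamp and Slc25a37 were added after their values were seen. Alternatives were 3 further normalisations, trend and robust fitting, array weights, brighter probes only, 2 covariates, the replicate block, each set of replicate numbers, a gene's mean over its probes and each mouse left out. The interaction with the sets of replicate numbers was added after seeing the data.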

Additional observations from a re-analysis of the deposited data

Results flagged for a closer look

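The dim second probe of Ftl1 was singled out because its difference changed between the sets of replicate numbers. It was 0.18 in numbers 1 to 3 and -0.1 in numbers 4 to 11, a change of 0.28 (limma interaction, p = 0.00497, adjusted p = 0.401 over all probes). The probe averaged 4.56, near the floor of the array. The bright Ftl1 probe changed in the same direction, by 0.96 (p = 0.134).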

How the results depend on the processing

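Flvcr1 kept its sign under all 11 settings but missed the threshold with the replicate block, with the macrophage mean as a covariate (-0.31) and in replicate numbers 4 to 11 alone (-0.36). Read as the mean of its probes, Flvcr1 also missed it (-0.21, limma, p = 0.0556). Hamp2 missed it in numbers 4 to 11 alone (0.47). Cp passed with the first principal component (0.25 and 0.22 for its brighter probes) and with the macrophage mean (0.26 for both). With array weights these Cp differences were 0.15 and 0.047, and neither passed. In numbers 1 to 3 alone, Ftl1 (0.83) and Blvrb (0.5) passed, in a fit where 34.7% of all genes did. The causes were not tested. The following differences, none past the threshold in the fit of all mice, changed sign. With the first principal component they were 0.0017 for Flvcr1 probe 2, 0.062 for Tfrc probe 1, -0.016 for Ftl1 probe 1 and -0.016 for Blvrb probe 1. With the macrophage mean they were 0.0091 for Flvcr1 probe 2, 0.11 for Tfrc probe 1, -0.049 for Hmox1, -0.1 for Ftl1 probe 1, -0.077 for Blvrb probe 1 and -0.0099 for Blvrb probe 2. In numbers 4 to 11 they were 0.079 for Tfrc probe 1, -0.13 for Ftl1 probe 1, -0.011 for Slc40a1 probe 1 and -0.068 for Blvrb probe 1. In numbers 1 to 3 they were -0.27 for Tfrc probe 2, 0.18 for Ftl1 probe 2, -0.12 for Cp probe 2 and -0.017 for Cp probe 3. With array weights they were -0.084 for Tfrc probe 2 and 0.005 for Ftl1 probe 2.

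Of the member probes 2 passed in the fit of all mice, 4 with the first principal component, 0 in numbers 4 to 11 and 5 in numbers 1 to 3. Of the member genes 2 passed, against 0 in numbers 4 to 11, 4 in numbers 1 to 3 and 1 with the mean of all probes. The share of all genes past the threshold was 34.7% in numbers 1 to 3, 2.53% in numbers 4 to 11, 10.4% under array weights, 6.56% given the first principal component and 6.02% given the macrophage mean, against 3.47% in the fit of all mice. Numbers 1 to 3 alone called 5 genes of heme synthesis, 5 of heme transport and breakdown, 5 of iron uptake, 2 of iron storage, 4 of iron export and hepcidin control and 3 of mitochondrial transport. Array weights called 1 gene of heme transport, 1 of iron uptake, 2 of storage and 2 of mitochondrial transport. The first principal component called 1 of iron uptake, 1 of storage and 2 of mitochondrial transport, and the macrophage mean 2 of iron uptake. Iron export and hepcidin control held 0 called genes with trend and robust fitting, among brighter probes, with either covariate and in numbers 4 to 11.

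With 1 mouse left out, differences ran from -0.51 to -0.28 for Flvcr1 probe 1, -0.017 to 0.0087 for Flvcr1 probe 2, -0.12 to 0.071 for Tfrc probe 1, -0.084 to 0.11 for Tfrc probe 2, -0.068 to -0.041 for Fth1 probe 2, 0.041 to 0.39 for Hmox1, 0.044 to 0.29 for Ftl1 probe 1, 0.022 to 0.18 for Blvrb probe 1, 0.17 to 0.26 for Cp probe 1 and -0.00073 to 0.041 for Cp probe 3. Called member probes ran from 1 to 3, called member genes from 1 to 3, and called genes from 0 to 1 in heme transport, in storage and in iron export, and from 1 to 3 in mitochondrial transport. The dim probes of Flvcr1, Ftl1, Slc40a1 and Cp drop out among brighter probes.

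Mice with the same replicate number deviated from their group means with correlations from -0.66 to 0.64, over 0.1 in 4 of 11 pairs. Of 22 arrays 2 correlated best with their own number. The mice were therefore not treated as paired, although such correlations cannot exclude a pairing and the labels do not state one. With the replicate block the Flvcr1 difference was -0.42 (p = 0.0541), 1 member probe and 1 member gene passed, and 0 genes passed in iron export and in mitochondrial transport (Slc25a28 -0.21, p = 0.0537), while 3.46% of all genes passed.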
